A study of Mus musculus with 6 samples.

Results

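The resident-type heart macrophage genes described here were Timd4, Folr2, Cd163, Vsig4, Fcna, Cbr2 and F13a1, which are 7 of the 17714 genes in the deposited table. They were picked by symbol, with the difference between myocardial infarction (MI) and sham libraries of these same data already known, so their values in that contrast are given as a description and carry no test. There were 2 groups of 3 libraries: MI, an injury of the heart muscle usually made in mice by closing a coronary artery, and sham, the operation without that injury. All 6 libraries were labelled wild type, day 3, heart and lymphatic endothelial cells, the cells that line lymph vessels. The labels did not give strain, sex or age, and did not say whether libraries came from separate animals, so p-values measure the spread between these libraries alone. The protocol text mentioned heart tissue or primary endothelial cells, and named serum-containing culture medium but no sorting step.

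Resident macrophages live in the healthy heart, renew there largely without help from the blood, and engulf dying cells and debris. In the mouse heart they are recognised by TIMD4, FOLR2 and LYVE1, and many also carry the scavenger receptors CD163 and CD206. Monocytes that enter an injured heart carry CCR2 and give rise to other macrophages. The 7 genes fall into 3 roles. Timd4 encodes a receptor for phosphatidylserine, the lipid that dying cells expose, Cd163 encodes the scavenger receptor of haemoglobin bound to haptoglobin, and Folr2 encodes folate receptor beta, so these 3 act at the surface in uptake. Vsig4 encodes a receptor that binds fragments of complement C3, and Fcna encodes ficolin A, a secreted lectin that starts the lectin pathway of complement. Cbr2 encodes a carbonyl reductase also known from mouse lung, and F13a1 encodes the catalytic subunit of clotting factor XIII, a transglutaminase that cross-links fibrin and is also made by monocytes and by the platelet lineage.

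The promoters of 4 of these genes are shown because they stand for both ends of the range of differences, Timd4 and Vsig4 with the largest, F13a1 with the smallest and Fcna between them. Each is the 250 bases before a transcription start listed for the gene, on its strand, from RefSeq on GRCm38.p6. That start need not be the outer end of the gene. Capitals mark TGCTGA, letters of the motif bound by Maf family factors, and GAGGAA, the core bound by the myeloid factor PU.1, or their reverse complements (TCAGCA and TTCCTC).
Timd4: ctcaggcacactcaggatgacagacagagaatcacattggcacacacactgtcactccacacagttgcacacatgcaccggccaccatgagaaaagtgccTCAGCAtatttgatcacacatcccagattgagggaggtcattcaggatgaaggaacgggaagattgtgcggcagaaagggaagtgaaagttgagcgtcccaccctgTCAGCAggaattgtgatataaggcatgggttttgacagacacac
Vsig4: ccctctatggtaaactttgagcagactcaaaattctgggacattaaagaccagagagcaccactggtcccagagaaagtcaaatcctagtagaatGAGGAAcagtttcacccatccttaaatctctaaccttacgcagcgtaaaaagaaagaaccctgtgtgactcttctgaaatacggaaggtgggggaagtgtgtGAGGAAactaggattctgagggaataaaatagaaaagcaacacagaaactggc
Fcna: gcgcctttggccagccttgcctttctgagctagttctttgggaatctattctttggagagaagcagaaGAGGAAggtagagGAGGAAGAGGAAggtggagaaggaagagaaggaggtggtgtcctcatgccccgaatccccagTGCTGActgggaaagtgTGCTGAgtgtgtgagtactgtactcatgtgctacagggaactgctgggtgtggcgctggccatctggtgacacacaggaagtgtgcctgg
F13a1: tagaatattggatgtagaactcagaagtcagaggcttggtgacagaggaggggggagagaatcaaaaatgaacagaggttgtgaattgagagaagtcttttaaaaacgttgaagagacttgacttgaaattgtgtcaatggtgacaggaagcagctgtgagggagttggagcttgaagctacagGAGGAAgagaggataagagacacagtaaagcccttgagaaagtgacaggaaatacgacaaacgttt
These windows lie at chr11:46810549-46810798 on the plus strand (Timd4), and on the minus strand at chrX:96293439-96293688 (Vsig4), chr2:25627975-25628224 (Fcna) and chr13:37050245-37050494 (F13a1). The Fcna window lies inside the range of its gene, 25624665 to 25635440. The Timd4 window ends past the first base of the range of its gene, 46810786.

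All 7 genes had a promoter in the RefSeq table. TGCTGA was present in 3 of the 7 windows, those of Timd4, Folr2 and Fcna, against 15.8% of 27025 promoters of the same length. GAGGAA was present in 4 of the 7, those of Vsig4, Fcna, Cbr2 and F13a1, against 23.1%. The Fcna window, which lies inside its gene, held both, with 2 TGCTGA and 3 GAGGAA, of which 2 adjoin each other. The Cd163 window held neither. In all, 6 of the 7 windows held at least 1 of these letter strings, against 35.3% of all promoters, and no window held TATAAA on the gene's strand, against 8.12%. Both strands were searched for the first 2 strings, which do not overlap each other in these windows. The strings are short and were matched exactly, and a match describes the letters and not a bound site.

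The MI libraries held 21154200 to 21689212 estimated counts and the sham libraries 3206373 to 3591135, so MI depth was 6.29 times sham depth, and depth and group cannot be told apart. Of 13370 genes tested with edgeR's quasi-likelihood test, 9801 (73.3%) passed a Benjamini-Hochberg adjusted p of 0.05, 36.4% of tested genes being called higher and 36.9% lower in MI. Pairs of MI libraries differed by a chi-square per gene of 22.5 and 37.3 where MI 1 was one of the pair and of 4.28 without it. MI 1 therefore stood apart from MI 2 and MI 3, and values without it are given where it matters. Sham pairs gave 1.55 to 1.79. This chi-square was taken on unscaled counts and grows with depth, so it does not compare the spread of the groups. The labelled cell type was checked against its markers. Pecam1, an endothelial junction gene, had 386 ± 5.90 CPM (counts scaled to library size) in MI and 1604 ± 19.6 CPM in sham, and the lymphatic regulator Prox1 had 1.26 ± 0.456 CPM in MI and 7.12 ± 0.548 CPM in sham (SD, n = 3 each, as for every ± below unless an SE is named). Macrophage transcripts were abundant in both groups: Csf1r, the receptor for the macrophage growth factor CSF1, had 1261 ± 66.6 CPM in MI and 411 ± 16.1 CPM in sham. Heart muscle transcripts were present too: the cardiomyocyte gene Myh6 had 19.6 ± 0.392 CPM in MI and 260 ± 25.4 CPM in sham.

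All 7 genes were lower in MI than in sham, by amounts that ranged from 15.4-fold for Timd4 to 1.16-fold for F13a1. In each of the 7, every MI library lay below every sham library in CPM, as it did for 38.1% of all genes tested, while every MI library lay above every sham library for 38.0%. The rule that chose the genes used this contrast, so nothing is read from that count. Their median log2 fold change (MI minus sham) was -2.29, against -0.01 over all genes tested. In RNA from many cells, fewer cells of a type and less RNA in each cell cannot be told apart.

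**Figure D1:**
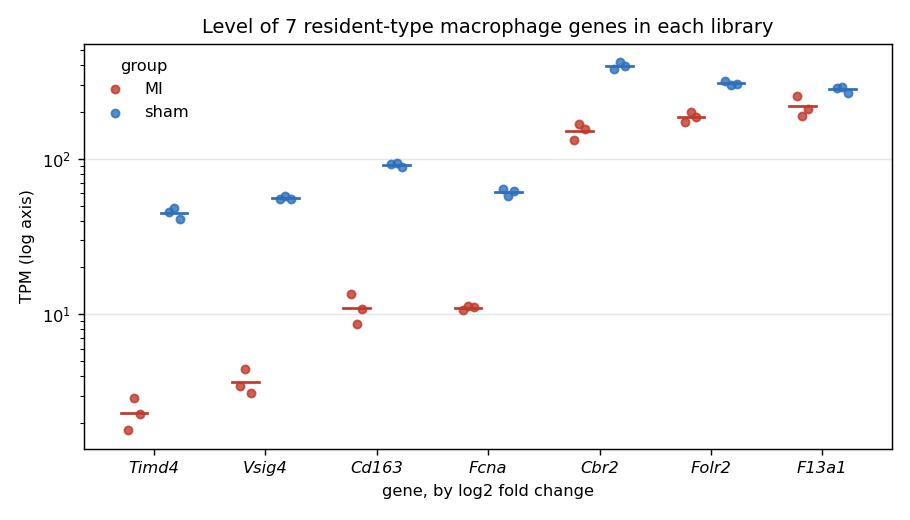
Level of each gene in TPM (transcripts scaled for length and library size, log axis) in the 3 MI libraries and the 3 sham libraries, with genes from left to right by log2 fold change. Points are libraries and short lines are group means. Timd4 and Vsig4 lie under 5 TPM in every MI library and over 40 TPM in every sham library, while F13a1 lies between 188 and 289 TPM in all 6.

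Among the uptake receptors, Timd4 (Entrez 276891, chromosome 11 from 46810786 to 46844333 on GRCm38.p6, protein coding) had 1.79, 2.89 and 2.27 TPM in MI 1, 2 and 3, against 45.2, 48.0 and 41.2 TPM in sham 1, 2 and 3. The counts behind these levels were 36.0, 50.5 and 48.0 in MI and 147, 143 and 130 in sham. No MI library came near a sham library, although the MI libraries were sequenced more deeply. The log2 fold change of the counts was -3.94 ± 0.15 (SE), and 84 of the 13370 genes tested had a lower one. On the TPM scale the means were 19.3-fold lower. All 7 genes had a larger fold on the TPM scale than from counts, for example 15.3-fold and 13.5-fold for Vsig4. For Timd4, in addition, the number of counts per TPM, which follows the transcript length assigned to the gene, varied 1.32-fold over the 6 libraries, against 1.005-fold to 1.015-fold for the other 6.

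Cd163 (Entrez 93671, chromosome 6 from 124304636 to 124330529, protein coding) had 13.5, 8.72 and 10.9 TPM in MI, against 92.4, 94.3 and 88.6 TPM in sham. All sham libraries lay close together, and MI 1 was the highest of the MI libraries. Its log2 fold change was -2.90 ± 0.12 (SE), or -2.99 without MI 1. Folr2 (Entrez 14276, chromosome 7 from 101839988 to 101857190, protein coding) had 173, 200 and 187 TPM in MI, against 317, 299 and 301 TPM in sham. Here MI 1 was the lowest of the 6 libraries. The groups did not overlap, but the gap was small beside that of Timd4 or Cd163, with a log2 fold change of -0.55 ± 0.10 (SE), or -0.43 without MI 1.

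Of the complement genes, Vsig4 (Entrez 278180, chromosome X from 96247201 to 96293438, protein coding) had 3.45, 4.42 and 3.13 TPM in MI, against 55.4, 57.3 and 55.1 TPM in sham. Its counts were 49.9 to 72.4 in MI and 147 to 164 in sham. Like Timd4 it was lower by more than 10-fold in every pairing of an MI with a sham library, with a log2 fold change of -3.76 ± 0.16 (SE), below which 108 tested genes lay. Fcna (Entrez 14133, chromosome 2 from 25624665 to 25635440, protein coding) had 10.6, 11.3 and 11.2 TPM in MI, against 63.6, 57.5 and 61.8 TPM in sham. Both groups were tight, and the log2 fold change was -2.29 ± 0.13 (SE).

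Of the 2 enzymes, Cbr2 (Entrez 12409, chromosome 11 from 120729485 to 120732025, protein coding) had 132, 167 and 156 TPM in MI, against 381, 418 and 393 TPM in sham. MI 1 was again the lowest library, and the log2 fold change was -1.22 ± 0.12 (SE), or -1.06 without MI 1. F13a1 (Entrez 74145, chromosome 13 from 36867178 to 37050244, protein coding) had 253, 188 and 210 TPM in MI, against 285, 289 and 266 TPM in sham. MI 1, the highest MI library, lay just below the lowest sham library, and MI 2 was the lowest of the 6. Its log2 fold change of -0.21 ± 0.08 (SE) was the smallest of the 7, and 5777 tested genes had a lower one. With library totals as the scale in place of TMM it was -0.56, and the median of all genes was then -0.36.

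The spread between libraries differed among the genes and between the groups. In sham the coefficient of variation of CPM was 1.15% (Timd4) to 5.56% (Fcna), and in MI it was 8.93% (F13a1) to 22.7% (Vsig4). The sham counting error exceeded the sham spread for Timd4 (8.45%), Vsig4 (7.95%), Fcna (7.97%), Folr2 (3.94%) and Cd163 (3.49%). It did not for Cbr2 (3.57%) and F13a1 (2.14%). A spread below the counting error is not read as low variation. For Timd4 and Vsig4 the MI spread of the counts, 17.3% and 22.5%, stood beside a counting error of 14.9% and 13.2%. For Folr2, Cbr2 and F13a1 the MI spread of 8.64% to 17.9% was several times the counting error of 1.04% to 2.45%. Within MI, F13a1 and Cd163 were highest in MI 1, while Timd4, Folr2, Fcna and Cbr2 were lowest there. MI 1 also had the highest level of the pan-leukocyte gene Ptprc, with 302 TPM against 196 and 225 TPM in MI 2 and MI 3. Other leukocyte genes, named after their values were seen, went both ways there. Itgam had 902 CPM against 742 and 808 CPM, and Tyrobp 517 CPM against 777 and 664 CPM. Counts per TPM in MI 1, relative to the median gene, were 1.49 for Cd163 and 1.30 for F13a1. They were 0.653 for Timd4, 0.350 for Folr2, 0.429 for Fcna and 0.329 for Cbr2. Whether transcript length plays a part in these differences was not tested.

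The order of the levels per transcript length differed between the groups. In MI, from high to low, it was F13a1, Folr2, Cbr2, Cd163, Fcna, Vsig4 and Timd4, and the libraries of F13a1 and Folr2 overlapped, as did those of Cd163 and Fcna. In sham it was Cbr2, Folr2, F13a1, Cd163, Fcna, Vsig4 and Timd4, and no 2 neighbours in that order overlapped. F13a1 thus held the first place in MI, with a mean of 217 ± 33.1 TPM, and the third in sham, with 280 ± 12.1 TPM. In the list of all genes ordered by mean TPM, Timd4 stood at rank 10816 in MI and 2988 in sham, and F13a1 at rank 718 in MI and 489 in sham.

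The summed level of the 7 genes was 587, 583 and 580 TPM in MI 1, 2 and 3, against 1239, 1262 and 1207 TPM in sham. The sum varied little within MI although its parts did not. F13a1 took 37.2 ± 5.48% of it in MI and 22.6 ± 0.512% in sham, and Folr2 took 32.0 ± 2.47% in MI and 24.7 ± 0.944% in sham. Cbr2 held 26.0 ± 3.19% in MI and 32.1 ± 1.22% in sham. The other 4 genes all took less in MI, Timd4 0.397 ± 0.0958% in MI against 3.62 ± 0.196% in sham, and Cd163 1.89 ± 0.404% in MI against 7.43 ± 0.0723% in sham.

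**Figure D2:**
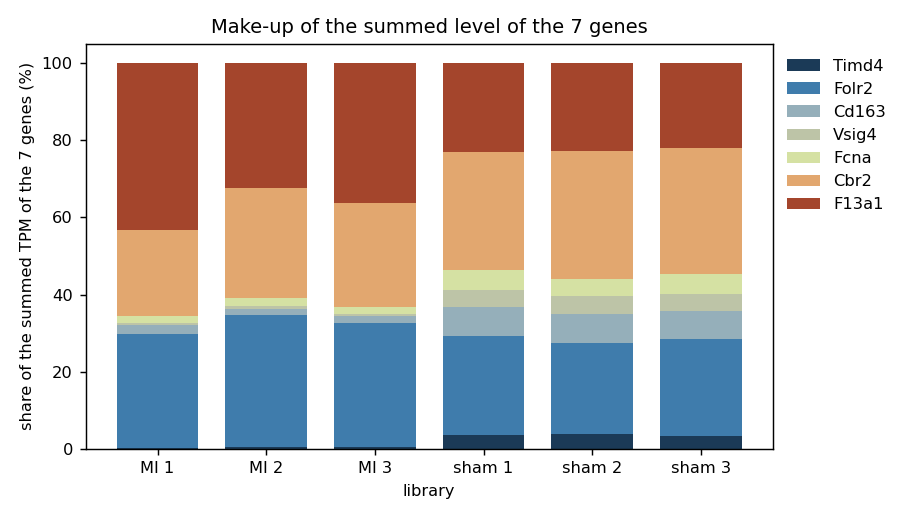
Share of the summed TPM of the 7 genes taken by each of them (percent, stacked bars from 0) in the 3 MI libraries and the 3 sham libraries. F13a1 and Folr2 take larger shares in every MI library than in any sham library, and Timd4, Cd163, Vsig4 and Fcna take smaller ones.

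The genes were also set against Csf1r and Ptprc, which mark macrophages and all leukocytes, library by library. Csf1r was 3.07-fold higher in MI, with 559, 546 and 564 TPM in MI against 206, 210 and 193 TPM in sham. Ptprc was 6.46-fold higher, with 302, 196 and 225 TPM in MI against 42.4, 41.4 and 40.2 TPM in sham. Any gene whose fold change is below theirs has a lower ratio in MI, which held for 87.3% of all genes tested against Csf1r and for 94.1% against Ptprc, so the direction of these ratios is common to most genes. All 7 are divided by the same value in each library, so the order of the ratios repeats that of the fold changes and adds nothing to it.

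Per 100 Csf1r counts there were 0.161, 0.204 and 0.193 Timd4 counts in MI, against 8.74, 8.66 and 9.13 in sham, a 47.8-fold lower ratio. Vsig4 stood at 0.224, 0.293 and 0.201 in MI, against 9.74, 9.89 and 10.3 in sham, and was 42.3-fold lower. The Cd163 ratio was 2.77, 1.82 and 2.23 in MI, against 51.2, 51.6 and 52.7 in sham, or 23.1-fold lower. These 3 receptors were each above 8 counts per 100 Csf1r counts in sham and below 3 in MI. Fcna was 15.1-fold lower, with 0.659 ± 0.0314 in MI and 9.95 ± 0.816 in sham, and Cbr2 7.204-fold lower, with 6.92 ± 0.890 in MI and 49.6 ± 2.68 in sham. For Folr2 the ratio was 9.04 ± 0.778 in MI and 40.7 ± 1.92 in sham, 4.51-fold lower. F13a1 had 45.4, 34.5 and 37.3 counts per 100 Csf1r counts in MI, against 138.3, 137.9 and 138.1 in sham, a 3.56-fold lower ratio. In sham it was nearly the same in all 3 libraries, with an SD of 0.239. That is closer than the 2.14% counting error of F13a1 in sham would give, so nothing is read from it.

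Against Ptprc the ratios were lower by 7.43-fold (F13a1) to 99.8-fold (Timd4). The spread within MI depended on which gene was the denominator. Per 100 Ptprc counts, Cd163 had 4.07, 4.02 and 4.42 counts in MI, against 196, 206 and 201 in sham, and F13a1 66.5, 76.04 and 74.0 in MI, against 531, 552 and 525 in sham, so both were steadier over the MI libraries against Ptprc than against Csf1r. Folr2, at 12.2, 21.8 and 17.7 in MI against 159, 154 and 160 in sham, was steadier against Csf1r. In CPM, Ptprc, Cd163 and F13a1 were all highest in MI 1, and Folr2 and Csf1r lowest there. These differences in spread thus rest largely on that library, and nothing is read from them. The median log2 ratio over the 7 genes differed (MI minus sham) by -3.91 against Csf1r and by -4.98 against Ptprc. That difference was -3.33 against Mertk, a receptor for dying cells on resident and other mature macrophages, -3.89 against the complement gene C1qa, -4.65 against Adgre1, which encodes F4/80, and -6.15 against the lysosomal gene Cd68.

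**Figure D3:**
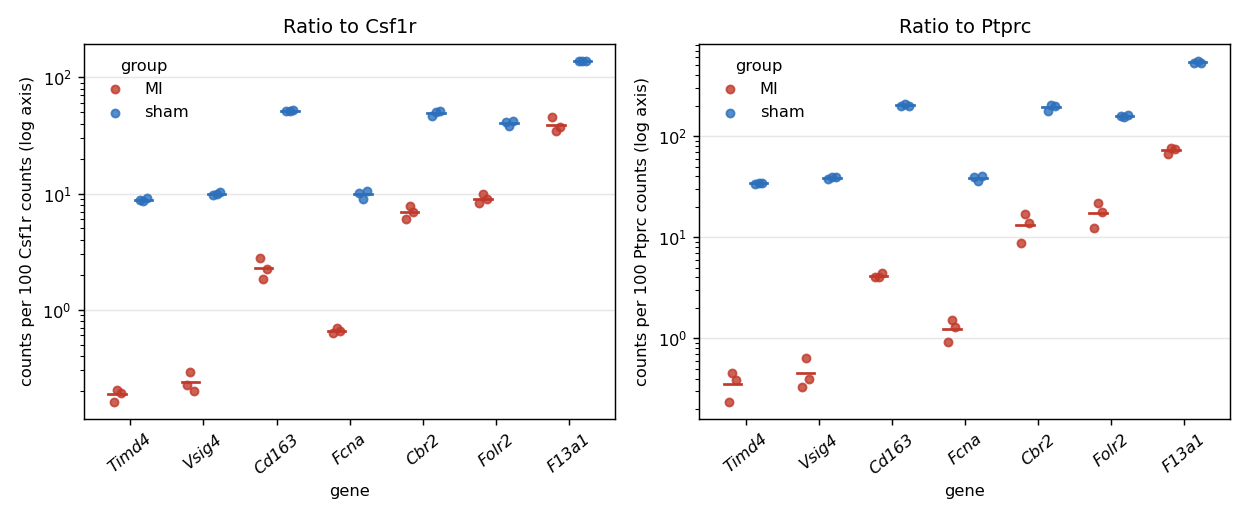
Counts of each gene per 100 counts of Csf1r (left) and of Ptprc (right), on log axes, in the 3 MI libraries and the 3 sham libraries, with short lines at group means. All MI points lie below all sham points of the same gene, from 3.56-fold (F13a1) to 47.8-fold (Timd4) for means against Csf1r.

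Other genes named for resident-type macrophages did not move as one. Of 23 tested, 12 were called higher and 9 lower in MI, against 36.4% and 36.9% of all genes, and their median log2 fold change was 1.01. Lyve1, the hyaluronan receptor of lymphatic vessels and of some resident macrophages, fell 17.1-fold, with 12.5 ± 0.752 CPM in MI and 214 ± 3.89 CPM in sham (adjusted p = 1.7e-11 in edgeR's quasi-likelihood test). Siglec1, a sialic acid receptor of macrophages, rose 9.39-fold (adjusted p = 1.09e-10), with 201 ± 12.03 CPM in MI and 21.4 ± 1.00 CPM in sham. Fcrls, an Fc receptor-like gene, rose 5.80-fold (adjusted p = 1.16e-10), and Cd5l, a secreted macrophage protein, rose 81.2-fold (adjusted p = 1.32e-10), with 85.2 ± 4.37 CPM in MI and 1.05 ± 0.525 CPM in sham.

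Several of these genes, named after their values were seen, went opposite ways. Mrc1, which encodes the mannose receptor CD206, rose 2.01-fold, with 676 ± 131 CPM in MI and 336 ± 10.5 CPM in sham. Igf1, a growth factor, rose 3.27-fold and Stab1, a scavenger receptor, 4.39-fold. On the other side, the lectin gene Mgl2 fell 9.53-fold, with 18.5 ± 2.87 CPM in MI and 177 ± 10.2 CPM in sham, the chemokine gene Ccl24 fell 9.64-fold, and Hpgd, which breaks down prostaglandins, 5.77-fold. The lectin gene Cd209f had 0 counts in MI and 4.37 ± 1.17 CPM in sham, and was at least 83.1-fold lower against a floor of 3 counts over the MI group. Selenop, a selenium carrier, had 2433 ± 148 CPM in MI and 2351 ± 33.9 CPM in sham and was not called, and by library totals it was called lower.

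Core macrophage genes and genes of monocytes and recruited macrophages all rose, while 36.4% of all genes tested were called higher. All 20 core genes tested were called higher (median log2 fold change 2.45), led by the protease gene Ctss, 12.8-fold, the lysosomal gene Cd68, 14.5-fold, the antibody receptor gene Fcgr1, 15.2-fold, and Laptm5, 10.1-fold. Among these 20, Mertk rose least, 2.04-fold. All 18 monocyte and recruited macrophage genes were called higher too (median 5.62). Gpnmb, a glycoprotein of lipid-laden macrophages, had 2559 ± 153 CPM in MI and 10.9 ± 1.51 CPM in sham, Chil3, a chitinase-like protein, 486 ± 11.5 CPM in MI and 2.53 ± 0.683 CPM in sham, the arginase gene Arg1 310 ± 5.33 CPM in MI and 1.05 ± 0.486 CPM in sham, and osteopontin, Spp1, 7959 ± 185 CPM in MI and 22.9 ± 7.39 CPM in sham. The 7 resident-type genes, at log2 fold changes of -3.94 to -0.21, lay below every tested gene of both lists; they were chosen with these values known, and that order is a description.

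**Figure D4:**
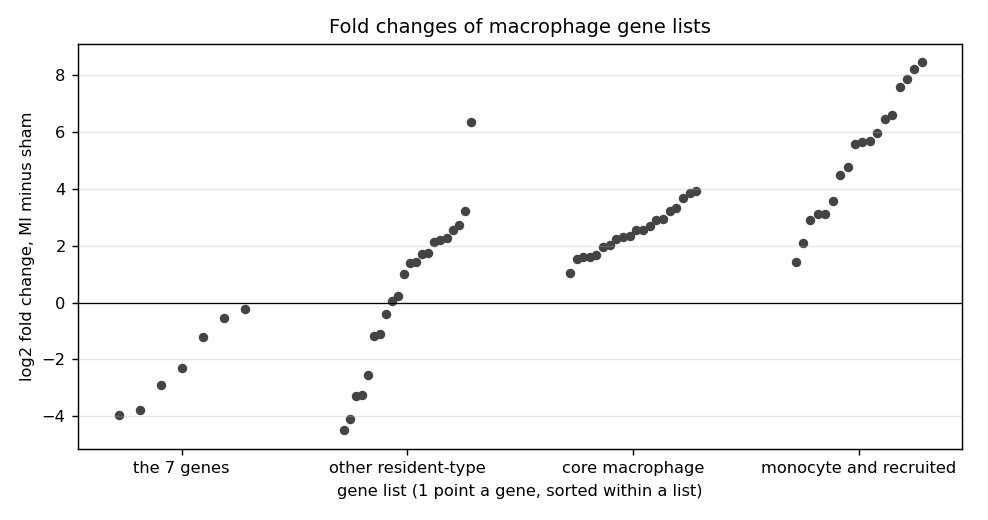
Log2 fold change (MI minus sham) of each tested gene in 4 lists, 1 point a gene, sorted within a list; Cd209f, with 0 counts in MI, is left out. The 7 genes lie between -3.94 and -0.21, the core and the recruited lists lie wholly above 0, and the other resident-type genes lie on both sides of 0.

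The partners of each gene were examined next, and their counts stand beside the 36.4% of all tested genes called higher and the 36.9% called lower. Of 17 tested genes for the recognition and engulfment of phosphatidylserine, the role of Timd4, 11 rose and 4 fell (median 1.03). Cd300lf, a phosphatidylserine receptor of myeloid cells, rose 182-fold, with 143 ± 7.99 CPM in MI and 0.765 ± 0.641 CPM in sham. Havcr2, a relative of Timd4 that encodes TIM-3, rose 29.5-fold and Itgb5, an integrin chain that binds bridging proteins, 4.50-fold, while 3 genes of bridging proteins, picked for naming with their values known, fell: Gas6 by a factor of 1.31, Pros1 of 2.24 and Mfge8 of 2.10.

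Of 13 tested genes listed around the clearance of haemoglobin and heme, the role of Cd163, 12 rose and none fell (median 2.12). The heme-degrading enzyme gene Hmox1 rose 7.62-fold, with 2806 ± 275 CPM in MI and 368 ± 13.5 CPM in sham, Lrp1, whose product takes up heme bound to hemopexin, 11.3-fold, the iron transporter gene Slc11a1 9.64-fold and the ferritin gene Fth1 9.08-fold. The gene not called was Nrf1, a transcription factor gene and not itself a clearance gene, at 28.1 ± 1.31 CPM in MI and 23.6 ± 6.14 CPM in sham. Csnk2b, a kinase subunit gene in the same list, was among the 12 that rose. Of 15 genes for folate uptake and use, 12 rose and 2 fell (median 0.78). Slc19a1, the reduced folate carrier, rose 11.4-fold, with 6.05 ± 0.564 CPM in MI and 0.511 ± 0.233 CPM in sham, and the mitochondrial enzyme gene Mthfd2 rose 6.81-fold, while Aldh1l1 fell 3.57-fold. Scaling by library totals left 8 of the 15 called higher.

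Of 13 tested complement genes around Vsig4, 8 rose and 5 fell (median 2.52). Receptor chains of the integrins that bind C3 fragments rose, Itgb2 13.2-fold, Itgax 29.9-fold and Itgam (log2 fold change 3.59), as did the C5a receptor gene C5ar1, 5.78-fold. Among those that fell, Cr1l and Cd59a, which encode complement inhibitors of the cell surface, were named after their values were seen; Cr1l had 116 ± 3.65 CPM in MI and 213 ± 8.32 CPM in sham, and Cd59a had 8.63 ± 1.16 CPM in MI and 52.9 ± 0.369 CPM in sham. In the lectin pathway, where 5 genes could be tested, C4b rose 1.70-fold, Colec11, a collectin, fell 5.08-fold and Serping1, an inhibitor of the pathway's proteases, fell 2.61-fold. Fcnb, the other mouse ficolin gene, had 0.649 ± 0.0833 CPM in MI and 0.0921 ± 0.159 CPM in sham, too few counts to be tested.

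Among 9 tested relatives of Cbr2 that reduce carbonyls, 7 rose and 2 fell (median 1.16). Akr1a1, an aldehyde reductase, rose 2.74-fold, with 1161 ± 111 CPM in MI and 423 ± 9.96 CPM in sham, Akr1b8 rose 6.98-fold, Akr1c13 4.44-fold and Akr1b3 1.81-fold. Of 10 tested genes around F13a1, 6 rose and 2 fell (median 2.04). The transglutaminase substrate fibronectin, Fn1, rose 7.56-fold, the plasminogen activator gene Plau 6.76-fold and its receptor gene Plaur 9.68-fold, and the clotting factor gene F10 rose 96.2-fold, with 134 ± 10.0 CPM in MI and 1.41 ± 1.06 CPM in sham. F13b, the carrier subunit of factor XIII, had under 0.1 CPM in both groups.

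Some of the 7 genes are also made by other cells, whose markers were measured in the same libraries. The counts of calls, here and in the cell type lists that follow, stand beside 36.4% of all tested genes called higher and 36.9% called lower. Cbr2 is made by airway club cells, and 5 of 6 tested airway genes fell in MI, with a summed level of 5.23 to 5.35 TPM in MI and 91.3 to 99.2 TPM in sham; Scgb1a1 had 0.287 TPM in MI and 32.6 TPM in sham on average, and Scgb3a2 and Bpifa1 had 0 counts in every MI library. Scgb3a1 fell 5.80-fold and Cyp2f2 39.7-fold. F13a1 is made in the platelet lineage, of whose 7 tested markers 1 rose and 1 fell, with a summed level of 49.5 to 59.9 TPM in MI and 30.97 to 40.1 TPM in sham, of which Ppbp, a chemokine gene of platelets, held 42.9 ± 4.87 TPM in MI and 11.0 ± 3.66 TPM in sham. Ppbp was the gene that rose, 4.37-fold, and Mmrn1, which is also in the lymphatic list, the one that fell, 10.0-fold. The first markers of the list were not called, Itga2b with 2.65 ± 0.229 CPM in MI and 2.50 ± 0.962 CPM in sham, and Gp1ba with 1.78 ± 0.616 CPM in MI and 1.71 ± 0.700 CPM in sham.

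Timd4 and Vsig4 are carried by liver and body cavity macrophages as well. Of 4 tested liver and Kupffer cell genes 1 rose and 2 fell, a share of calls near the 73.3% of all genes tested. Their summed level was 375 to 389 TPM in MI and 346 to 364 TPM in sham. Of this, Trf, also made outside the liver, held 308 TPM on average in each group. The gene that rose was Cd5l, with 72.3 ± 1.54 TPM in MI and 0.967 ± 0.464 TPM in sham. The liver gene Ahsg fell 66.5-fold, with 0.422 ± 0.143 CPM in MI and 28.7 ± 3.15 CPM in sham, Cyp2e1 fell 5.23-fold, and Serpina1b, too low to be tested, had 0 counts in MI and 0.955 ± 0.170 CPM in sham. Some liver and airway transcripts of the sham libraries were thus at or near 0 in MI libraries. The operation and any batch of libraries prepared group by group cannot be told apart. The Kupffer cell lectin gene Clec4f, also too low to be tested, had 0.0177 ± 0.0306 CPM in MI and 0.682 ± 0.503 CPM in sham. Its counts summed to 1.0 over the MI libraries and to 8.4 over the less deeply sequenced sham libraries. Of 10 tested body cavity macrophage genes 8 fell and none rose (median -1.55), against 36.9% and 36.4% of all genes tested. Their summed level was 97.0 to 101 TPM in MI and 435 to 447 TPM in sham. Most of that sum was Icam2, which is also an endothelial gene, with 67.4 ± 3.54 TPM in MI and 344 ± 8.35 TPM in sham. Gata6, the factor that defines these cells and is also found in heart muscle and vessels, had 4.86 ± 1.17 CPM in MI and 14.6 ± 2.20 CPM in sham, and Cxcl13 had 0.297 ± 0.129 CPM in MI and 7.62 ± 0.150 CPM in sham. The part of airway, platelet, liver or body cavity cells in the values of the 7 genes was not tested.

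Markers of further cell types moved with the group too. All 14 pan-endothelial genes and all 12 cardiomyocyte genes tested fell (medians -2.08 and -4.49). Of 10 lymphatic genes 9 fell, and 1, Pdpn, rose 40.8-fold (median -2.42). The cardiomyocyte genes summed to 278 to 335 TPM in MI and 7576 to 7761 TPM in sham. For the pan-endothelial genes the sum was 1288 to 1316 TPM in MI and 6659 to 6751 TPM in sham. For the lymphatic genes it was 243 to 260 TPM in MI and 486 to 510 TPM in sham. Of 9 neutrophil genes 8 rose and none fell (median 3.92, and 3.70 where Ngp, with no counts in sham, is set to its bound), and of 9 dendritic cell genes 4 rose and 4 fell (median 0.19), shares near the 36.4% and 36.9% of all genes tested. The part of these cells in the values of the 7 genes was not tested.

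The genes whose profile over the 6 libraries lay nearest to the mean profile of the 7, by the distance between centred log2 CPM values, were Tmem255b (distance 0.0776), Tsc22d1 (0.0843), Chst7 (0.0995), Esam (0.103) and Lynx1 (0.109), among 11106 candidates. Between pairs of the 7 genes the distance ran from 0.344 for Timd4 and Vsig4, the closest pair, to 4.30 for Timd4 and F13a1. The genes named above were picked as the nearest of all candidates and measured to a mean profile, so these distances are not compared with theirs. Gene by gene, the nearest profile was that of Cox7a1 for Timd4, Sln for Vsig4, Jam2 for Cd163, Pfkm for Fcna, Cltb for Cbr2, Mapk3 for Folr2 and Dld for F13a1. A value of 0.5 was added to each CPM before the log, which shrinks differences of genes at low levels. Sln, at 0.457 ± 0.113 CPM in MI, had a log2 fold change of -4.61, against -3.76 for Vsig4. With 6 libraries in 2 groups, such a distance mainly reads the difference between the groups.

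In the genome the 7 genes lie on 6 chromosomes, and only Timd4 and Cbr2 share one. Of the nearest protein-coding neighbours on either side, 8 were tested, of which 5 rose, 1 fell and 2 were not called, a share of calls near the 73.3% of all genes. Sgcd, the one that fell, lies 51921 bases from Timd4 and had 1.70 ± 0.406 CPM in MI and 8.40 ± 1.27 CPM in sham. Dcxr, 2208 bases from Cbr2, rose 2.35-fold, with 23.4 ± 4.27 CPM in MI and 9.97 ± 0.546 CPM in sham. Inppl1, 1759 bases from Folr2, was not called (adjusted p = 0.15 in edgeR's quasi-likelihood test), at a mean of 87.1 CPM in MI and 78.8 CPM in sham. Folr1, the near relative 1137 bases on its other side, had 0.140 ± 0.0807 CPM in MI and 0.339 ± 0.375 CPM in sham. Ly86, the nearest measured neighbour of F13a1 on one side, rose (log2 fold change 2.14), with a mean of 204 CPM in MI and 46.3 CPM in sham. GENCODE vM21 places antisense genes over Folr2 (Gm10602), Fcna (Fcnaos) and F13a1 (Gm49144 and Gm30489), which were not analysed here. No strand setting was given, so reads of such a pair could not be told apart.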

How the data were processed

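RNA of 6 libraries (3 MI, 3 sham) was sequenced on a BGISEQ-500 instrument and mapped to GRCm38, per the labels and the series design text; the submitters' processing notes name GRCm38.p6 and, with no role, Agilent Feature Extraction 9.1. The aligner, counting program, annotation and filters are not given in the sources used here. Per the file headers, the authors deposited estimated counts per gene (not scaled), TPM, FPKM and normalized read counts, a signal whose ratio to the counts is nearly constant within a library; counts and TPM were used, and the FPKM, signal values and group averages were not.

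Before testing, the estimated counts were rounded to integers. The filterByExpr function of edgeR 4.0.16 (R 4.3.3) kept 13370 of 17714 genes, which were scaled by TMM and fitted by a quasi-likelihood model with group as the only term. A gene was called at a Benjamini-Hochberg adjusted p under 0.05, taken over every tested gene (2-sided). CPM use TMM-adjusted library sizes. Differences on the log2 scale are MI minus sham; an SE is the absolute difference divided by the square root of F. Ratios used unrounded counts. All 7 genes passed the filter. The fit was tested on simulated data first. A floor of 3 counts over a group was used for genes at 0 and covers counting error only.

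The 7 genes and the 19 lists were chosen with earlier results of these data known. The naming rule took Csf1r and Ptprc, up to 4 genes with the smallest adjusted p from each list, any gene alone in its direction, and the first 2 cell type markers; for the cell type lists only some of these are printed, picked with their values known; some genes are not reported here; others are marked as chosen after their values were seen, except Mertk, C1qa, Adgre1, Itga2b, Cxcl13, Nrf1, F13b, Fcnb, Trf, Serpina1b, Scgb3a2 and Ngp, which were named for a ratio or a place in a count, and genes named as neighbours. Alternatives were DESeq2 1.42.0, RLE or total-count scaling, no filter or a stricter one, MI libraries thinned to sham depth, a replicate block, limma 3.58.1 on log2(TPM + 1) or log2(TPM + 0.1), and each library left out.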

Additional observations from a re-analysis of the deposited data

How the results depend on the processing

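The 7 genes had a negative log2 fold change under every setting run (17 each, the reported one included): -4.29 to -3.79 for Timd4, -4.11 to -3.40 for Vsig4, -3.25 to -2.79 for Cd163, -2.64 to -2.20 for Fcna, -1.57 to -1.06 for Cbr2, -0.90 to -0.43 for Folr2 and -0.56 to -0.16 for F13a1. Their median, -2.29 as reported, was -2.64 with libraries scaled to total counts and -2.57 with MI thinned to sham depth, and it was -2.36 to -2.20 with 1 library left out. The median log2 ratio to Csf1r, -3.91, was -4.98 with Ptprc, -4.65 with Adgre1, -6.15 with Cd68 and -3.33 with Mertk in its place. Scaling to total counts turned the calls over all genes, 4861 higher and 4940 lower as reported, into 3549 higher and 6628 lower, or 34.9% instead of 49.6% higher. Same-numbered libraries did not deviate together (r of -0.0481, -0.0208 and 0.0160). Such values cannot show whether the libraries were paired by design. With the replicate number as a block 9635 genes were called instead of 9801 and the median of the 7 was -2.29. Leaving out LOC118568718 and Gm20594 was added after seeing the data and gave 9798. Between 8596 and 9925 genes were called with 1 library left out. In the smaller lists, counts moved by over 1.5 times under single settings, among them 5 airway genes called lower against 3 without any 1 of the MI libraries. The MI counts of Timd4 and Vsig4, 36.0 to 72.4 a library, limit their precision. The cause was not tested.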
